A study of Mus musculus with 4 samples.

Results

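The 10 genes of the matrix metalloproteinase (MMP) family described here were followed across 4 single-colour Agilent arrays of cultured mouse aortic vascular smooth muscle cells. The members were Mmp2, Mmp3, Mmp9, Mmp10, Mmp11, Mmp12, Mmp13, Mmp14, Mmp19 and Mmp23, and every probe whose gene symbol in the deposited signal table was one of these was taken, which gave 14 probes of 56605 non-control probes. These were 10 of the 23 MMP genes on the array, with 14 of their 33 probes. All 4 cultures came from aortic explants of adult C57BL/6J mice, controls included, with EP4-Tg as the genotype. Prostaglandin E2 (PGE2) signals through EP4 among other receptors, and EP4 raises cyclic AMP. RNA was taken after 24 h, from 2 untreated control cultures and from 2 PGE2 cultures, and the medium is named as 10% DMEM. What drives the transgene, how much PGE2 was added and how many animals gave explants are not given in the sources used here. The labels call the cultures biological replicates without naming animals, and the p-values below measure only the spread between these cultures.

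MMPs are zinc-dependent proteases that cut collagens, elastin, laminins and proteoglycans outside the cell. Most are made as inactive precursors, in which a cysteine of the propeptide blocks the zinc, and are activated by other proteases, while tissue inhibitors (TIMPs) bind and block the active enzymes. In the arterial wall they are known for matrix turnover, smooth muscle migration and aneurysm formation. Many MMP genes are known targets of AP-1, the dimer of FOS and JUN proteins.

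Of the 10 genes, 4 (Mmp3, Mmp10, Mmp12 and Mmp13) lie in 1 cluster on chromosome 9, cytoband 9qA1, where the array has probes for 10 MMP genes. In the RefSeq annotation of GRCm38.p6 the order of these 10 is Mmp13, Mmp12, Mmp1b, Mmp3, Mmp1a, Mmp10, Mmp8, Mmp27, Mmp20 and Mmp7, with no other protein-coding gene between them. The RefSeq promoter table of that build, with windows from 250 bases before to 50 after an annotated start, had entries for 7 of the 10 members (not for Mmp2, Mmp9 and Mmp19). The windows were searched on both strands for the AP-1 element TGANTCA, the TATA box TATAAA and the cyclic AMP response element TGACGTCA, which do not overlap one another in the matches found. The 100 bases before the start are shown for the cluster members and, for contrast, for Mmp14, with matches in capitals.
Mmp3: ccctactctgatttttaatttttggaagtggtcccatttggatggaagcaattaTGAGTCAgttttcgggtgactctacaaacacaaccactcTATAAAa
Mmp10: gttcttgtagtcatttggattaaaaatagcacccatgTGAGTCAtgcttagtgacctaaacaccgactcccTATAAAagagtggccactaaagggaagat
Mmp12: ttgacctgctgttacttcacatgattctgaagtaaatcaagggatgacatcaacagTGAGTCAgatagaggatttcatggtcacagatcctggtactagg
Mmp13: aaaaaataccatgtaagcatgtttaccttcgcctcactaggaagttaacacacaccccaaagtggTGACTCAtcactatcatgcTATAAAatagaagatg
Mmp14: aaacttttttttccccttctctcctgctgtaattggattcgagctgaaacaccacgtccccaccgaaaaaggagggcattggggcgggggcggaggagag
These stretches are chr9:7445722-7445821 for Mmp3, chr9:7502242-7502341 for Mmp10, chr9:7347274-7347373 for Mmp12, chr9:7272414-7272513 for Mmp13 and chr14:54431498-54431597 for Mmp14, all on the plus strand.

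In each of the 4 cluster members the AP-1 match stood within the printed stretch, and its first base was 46 bases before the start in Mmp3, 63 in Mmp10, 44 in Mmp12 and 35 in Mmp13. The element is TGAGTCA in Mmp3, Mmp10 and Mmp12 and TGACTCA in Mmp13. Mmp12 has 2 windows, of which the other held no match to any of the 3 motifs. Across the family, the AP-1 element was found in 8 of the 10 cluster genes and in 0 of the 8 genes with a window elsewhere in the genome, against 7.81% of all 32851 promoter windows. The letters of the TATA box, at any place in the window and on either strand, were found in 9 of the 10 cluster genes. They were found in 1 of the other 8 genes, against 13.6% of all windows. The match of Mmp12 lay past the start, and that of Mmp8 was on the minus strand, 3 bases before the start. The cyclic AMP response element was found in 0 of the 18 MMP genes with a window, against 1.79% of all windows. A match is a run of letters and does not show that a factor binds there.

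**Figure D1:**
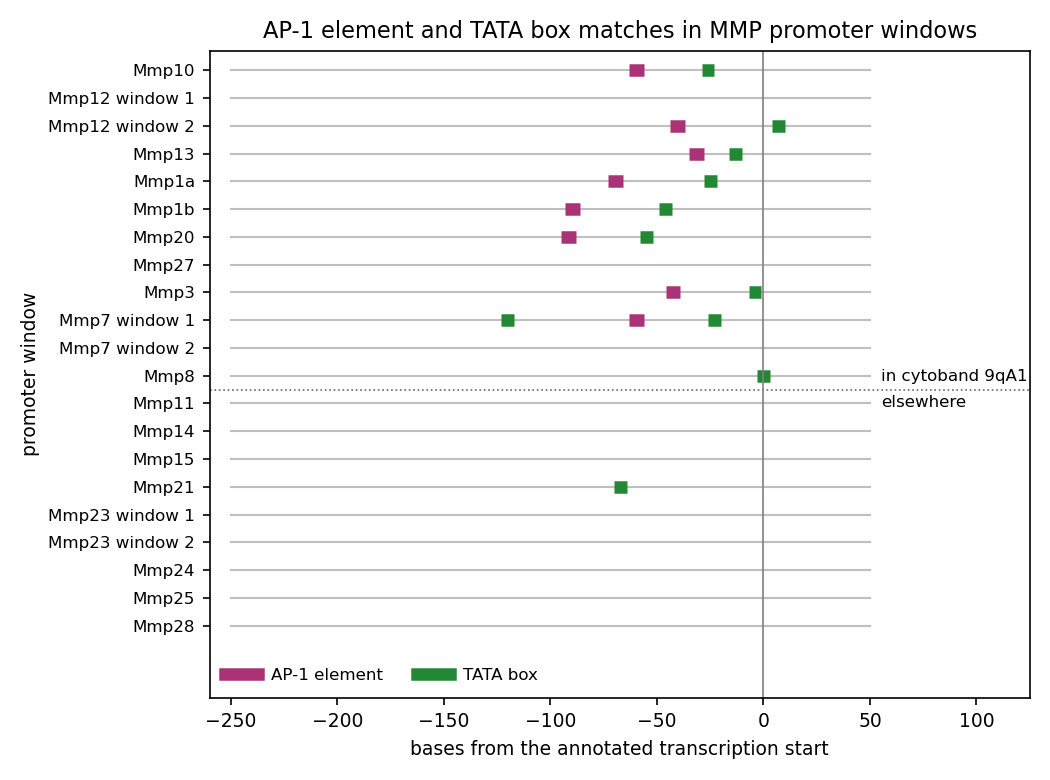
Matches to the AP-1 element and the TATA box in the RefSeq promoter windows of 18 MMP genes, drawn by distance in bases from the annotated start (vertical line). Windows above the dotted line belong to genes of cytoband 9qA1, where 8 of 10 genes hold an AP-1 match, and those below it to genes elsewhere, where 0 of 8 do.

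The family split sharply by signal. A scaled intensity below is the processed intensity after each array was brought to a common 75th percentile, in arbitrary units that can be set against one another for 1 probe but not between probes. Well above background is the scanner software's own call. Mmp2, Mmp3, Mmp11, Mmp14, Mmp19 and Mmp23 were well above background on all 4 arrays on at least 1 probe, whereas Mmp9, Mmp10, Mmp12 and Mmp13 were so on no array. The 7 probes of those 4 genes lay between 7.54 and 8.93 on control 1, 10.1 and 12 on control 2, 7.59 and 8.94 on PGE2 1 and 4.89 and 12.8 on PGE2 2. On the same arrays the dimmest probe well above background stood at 35.7, 47.0, 34.6 and 23.5, in the same order. Of the 4 cluster members, Mmp3 was thus the 1 with a measurable signal, although all 4 hold the AP-1 match shown above. Among all 10 genes of the cluster it was also the 1 gene above background on any array.

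**Figure D2:**
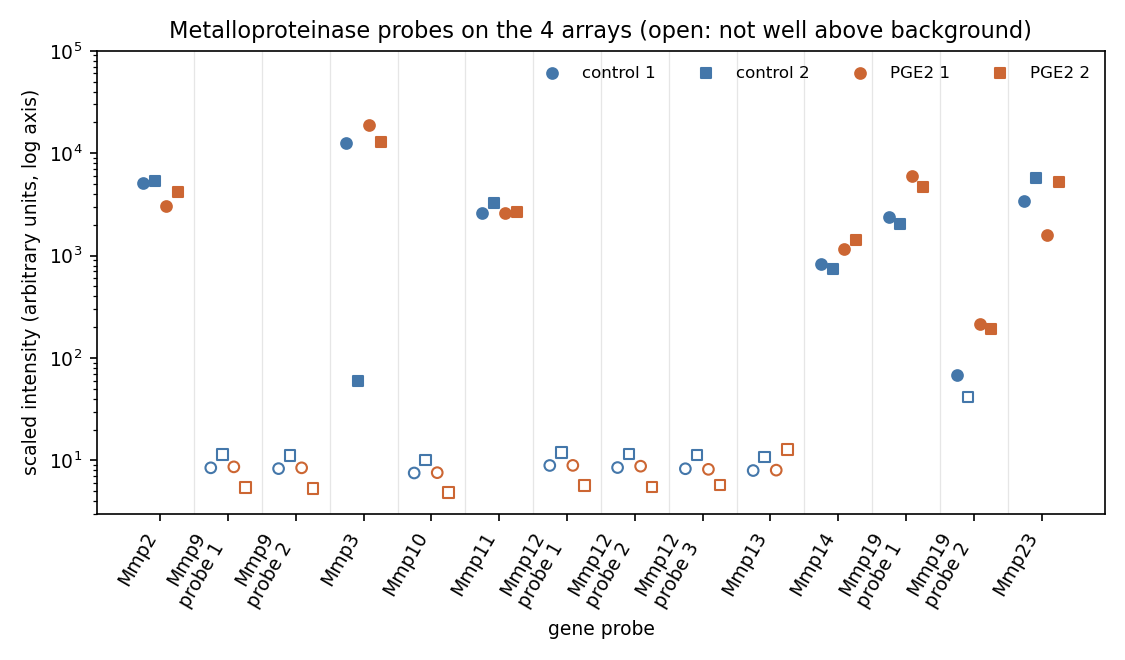
Scaled intensity (log axis) of the 14 probes on the 4 arrays, blue for control and orange for PGE2, circles for replicate 1 and squares for replicate 2, with open symbols not well above background. Mmp3 stands at 59.2 on control 2 and at 12457, 18769 and 12810 on the other 3 arrays, and Mmp14 and both Mmp19 probes are higher on both PGE2 arrays than on both control arrays.

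The 6 genes with a measurable signal were tested by limma with Benjamini-Hochberg adjustment over all 17660 genes tested. Of the 6, 0 passed an adjusted p of 0.05, where 0.668% of all tested genes did (0.396% higher with PGE2 and 0.272% lower). At an unadjusted p under 0.05 there were 2 of the 6, Mmp14 and Mmp19, both higher with PGE2, where 17.8% of all tested genes had one (7.31% higher and 10.5% lower). The groups did not overlap in 4 of the 6, with Mmp3, Mmp14 and Mmp19 higher on PGE2 arrays and Mmp2 lower, against 52.2% of all tested genes (24% higher and 28.3% lower). The median log2 change of the 6 was 0.29, against -0.03 over all tested genes. With 2 cultures in each group, an exact permutation test of a single gene cannot give a two-sided p under 0.333. RNA of a whole culture was measured, so more cells that express a gene and more RNA per cell cannot be told apart.

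Of the stromelysins, enzymes that cut proteoglycans, laminin and fibronectin and also activate other MMP precursors, Mmp3 stood apart. Its single probe (A_51_P255699) had scaled intensities of 12457 on control 1, 59.2 on control 2, 18769 on PGE2 1 and 12810 on PGE2 2. Control 2 alone was thus low, and control 1 lay just below the dimmer PGE2 array, while the PGE2 arrays differed from each other by 1.47-fold. The log2 change was 4.18 ± 2.69 (SE; n = 2 per group; adjusted p = 0.484, limma), with a 95% interval from -3.19 to 11.54. Left without control 2, the change was 0.32 ± 0.33 (adjusted p = 0.667), and without control 1 it was 8.03 ± 0.33 (adjusted p = 0.144), where the lone control array was taken to vary as the PGE2 pair did. Over all alternative settings the adjusted p ran from 0.144 to 0.864.

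The difference of Mmp3 between the controls, 211-fold, was the largest of all 17660 tested genes. The next was Plac8, at 109-fold in the other direction, a gene named here after its values were seen. A difference of at least 16-fold between the controls was found in 39 genes (0.221%), of which 3 were higher on control 1 and 36 on control 2. Control 2 lay at least 16-fold below every other array in 2 genes, Mmp3 and Wfdc12, which was also chosen after its values were seen. The same was found for control 1 in 4 genes, for PGE2 1 in 1 gene and for PGE2 2 in 5 genes. On control 2 the Mmp3 spot had a median pixel signal of 104 over a local background of 37, was well above background and carried no saturation or outlier flag. There is 1 probe and 1 spot for this gene, so no second measurement on the array bears on the value.

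**Figure D3:**
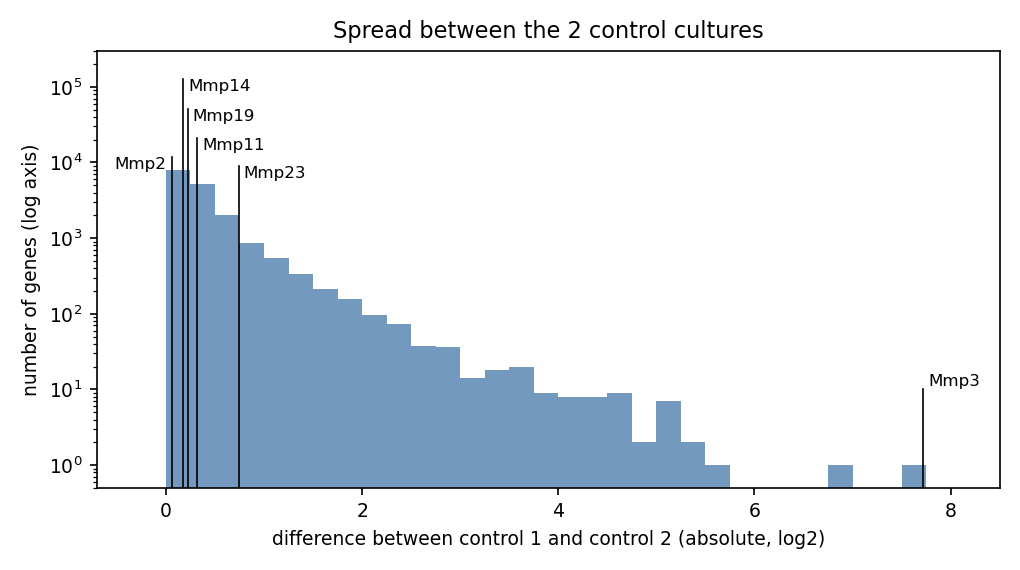
Absolute log2 difference between control 1 and control 2 for all 17660 tested genes (bars, log axis), with the 6 tested metalloproteinase genes marked by lines. Mmp3 lies alone at 7.72, Mmp23 at 0.74 and the other 4 at 0.32 or less, where the median of all genes is 0.28.

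Mmp10, the stromelysin gene closest in kind to Mmp3, was below background on all 4 arrays, and its values of 7.54, 10.1, 7.59 and 4.89 (control 1, control 2, PGE2 1 and PGE2 2) have no order. Mmp11, which encodes a stromelysin that furin activates inside the cell, was even across the arrays. Its scaled intensities were 2630 and 3282 on the controls and 2607 and 2665 on the PGE2 arrays, and the groups overlapped. The change was -0.16 ± 0.19 (adjusted p = 0.696, limma), with a 95% interval from -0.67 to 0.35; as a ratio of PGE2 to control, the interval ran from 0.631 to 1.28. Without control 2 the value was 0.0031, and on the authors' scaling, which raises the median of all genes to 0.23, it was 0.10.

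Of the gelatinases, which cut denatured collagen, basement membrane collagen and elastin, Mmp2 was bright in every culture and Mmp9 was not detected. Mmp2 had scaled intensities of 5066 and 5303 on the controls and 3023 and 4223 on the PGE2 arrays. Both PGE2 arrays were below both controls, though they lay farther apart than the controls did. The change was -0.54 ± 0.23 (adjusted p = 0.324, limma), which is 1.45-fold lower with PGE2, with a 95% interval from -1.15 to 0.08. It was -0.30 without PGE2 1 and -0.78 without PGE2 2. Both probes of Mmp9, which is best known from neutrophils and macrophages, were below background on every array, between 8.32 and 11.4 on the controls and between 5.35 and 8.65 with PGE2.

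Mmp13, the main interstitial collagenase of rodents, had 1 probe, at 7.96 and 10.8 on the controls and 8.04 and 12.8 with PGE2, in each case below background. Mmp12, the metalloelastase best known from macrophages, had 3 probes, and none was above background on any array. On the array nearest to a signal, PGE2 2, the Mmp13 probe at 12.8 remained below the 23.5 of the dimmest probe called there. A value below background gives only an upper limit of signal for these genes and no fold.

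Mmp14, a membrane-anchored MMP that cuts fibrillar collagen at the cell surface and activates the precursor of Mmp2 together with Timp2, was higher on both PGE2 arrays. Its scaled intensities were 826 and 732 on the controls and 1170 and 1417 with PGE2. The gap between the groups was wider than the spread within either. The change was 0.73 ± 0.19 (unadjusted p = 0.0165, adjusted p = 0.186, limma), or 1.65-fold, with a 95% interval from 0.22 to 1.24. It lay between 0.59 and 0.99 under all alternative settings, none of which called it.

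Mmp19, a secreted MMP that cuts basement membrane proteins and was first described outside the classical subgroups, had the smallest p of the 6. The brighter probe (A_55_P2495403) had scaled intensities of 2362 and 2021 on the controls and 5934 and 4639 on the PGE2 arrays. The groups did not overlap, and the change of 1.26 ± 0.21, or 2.40-fold, had a 95% interval from 0.69 to 1.83 (unadjusted p = 0.0033, adjusted p = 0.105, limma). The dimmer probe (A_66_P130161) had values of 68.5 and 41.5 on the controls, the second of them below background, and of 216 and 192 with PGE2. This dimmer probe was kept for testing through its PGE2 arrays alone. Its change was 1.93 ± 0.30 when all 26100 kept probes were fitted in place of genes (adjusted p = 0.0954, limma). That fit includes the control value below background, and 0.586% of its probes passed the threshold. Both probes thus gave higher values on both PGE2 arrays, and by p Mmp19 ranked at place 554 of the 17660 tested genes.

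Mmp23, an MMP anchored in the membrane by its propeptide and released by furin, varied more between cultures of 1 group than between groups. Its scaled intensities were 3423 on control 1, 5731 on control 2, 1596 on PGE2 1 and 5273 on PGE2 2. The arrays of replicate number 2 were the higher ones in both groups, by 1.67-fold among the controls and 3.30-fold with PGE2, and PGE2 1 was the lowest. The change was -0.61 ± 0.67 (adjusted p = 0.674, limma), with a 95% interval from -2.44 to 1.22. It turned to 0.25 without PGE2 1 and was -1.47 without PGE2 2.

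**Figure D4:**
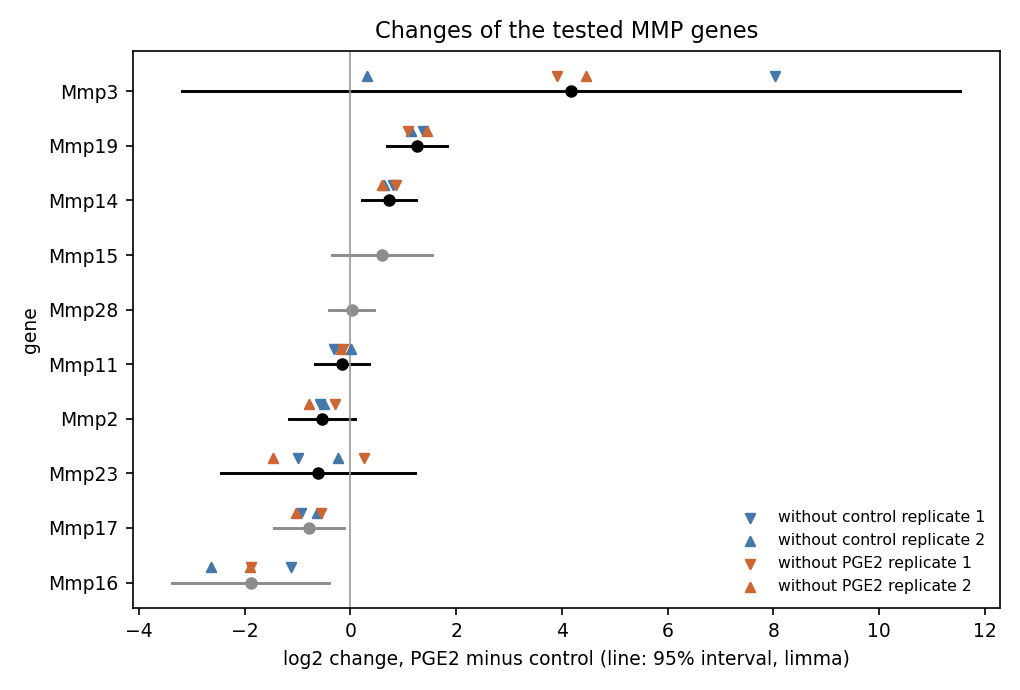
Log2 change with PGE2 and its 95% interval (limma, n = 2 per group) for the 10 MMP genes that were tested, black for the 6 members and grey for other MMP genes. Triangles give the value with 1 array left out, for the 6 members, Mmp16 and Mmp17, and those of Mmp3 run from 0.32 to 8.03 while those of Mmp19 stay between 1.09 and 1.44.

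Among the 13 other MMP genes on the array, 4 were tested and 9 were above background on no array. None of the 4 was called, and their median change was -0.38. Mmp16, which encodes another membrane-type MMP, had scaled intensities of 2953 and 1041 on the controls and 471 and 479 with PGE2 on its brightest probe, a change of -1.88 ± 0.54 (adjusted p = 0.217, limma). A dimmer Mmp16 probe was above background on 1 of the 2 controls, with values of 96.9 and 42.9 there, the latter below background, and of 68.1 and 97.5 with PGE2, so that its groups overlapped. On the brightest probe the change was -1.13 without control 1 and -2.64 without control 2. Mmp17, a membrane-type MMP held by a lipid anchor, stood at -0.79 ± 0.24 (adjusted p = 0.235). Mmp15, also a membrane-type MMP gene, was kept for testing through its PGE2 arrays alone. It had scaled intensities of 67.0 and 36.3 on the controls, the latter below background, and of 70.4 and 78.2 with PGE2. The change was 0.59 ± 0.35 (adjusted p = 0.445, limma).

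In the list of MMP inhibitors, 4 of 7 genes were tested, 1 rose and 0 fell, and the median was -0.21. Of all tested genes, 0.396% rose and 0.272% fell, which also applies to the lists below. Groups did not overlap in 1 inhibitor gene that was higher and in 2 that were lower, against 24% and 28.3% of all tested genes. Among the lower was Reck, with 8607 and 13179 on the controls and 2779 and 5012 with PGE2. Its change was -1.51 ± 0.39 (adjusted p = 0.188, limma). Timp1, a broad MMP inhibitor, had scaled intensities of 15214 and 14321 on the controls and 92383 and 90983 with PGE2. The groups lay far apart and the arrays within each close together. Timp1 rose with PGE2, with a log2 change of 2.63 ± 0.15 (adjusted p = 0.0438, limma). Its call was lost in 7 of 14 alternatives, among them all 4 that left out 1 array, where the value stayed between 2.59 and 2.68. The others were the percentile over probes above background on all 4 arrays, the authors' scaled signal and no filter on dim probes. There the adjusted p was 0.067, 0.0565 and 0.214 (limma), in that order.

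The list of activators and anchors of MMP precursors had 16 of 20 genes tested, with 0 called and a median of -0.24. Its smallest p values were those of Cd44, a hyaluronan receptor that holds MMPs at the cell surface, and Plat, the tissue plasminogen activator gene. Cd44 had scaled intensities of 955 and 936 on the controls and 1921 and 1881 with PGE2, a change of 1.01 ± 0.15 (adjusted p = 0.0907, limma). Plat stood at 1.25 ± 0.19 (adjusted p = 0.0930).

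Of 15 transcription factor genes known to act on MMP genes, 14 were tested and 0 were called, with a median of 0.15. The AP-1 subunit genes Fosl2 and Junb had the smallest p values. Fosl2 had scaled intensities of 3392 and 2967 on the controls and 8637 and 9460 with PGE2, a change of 1.51 ± 0.17 (adjusted p = 0.0635, limma). Junb stood at 1.71 ± 0.33 (adjusted p = 0.131). A second Junb probe, below background on control 2, had values of 56.0 and 27.9 on the controls and 153 and 155 with PGE2. The other AP-1 genes tested, Fos, Fosb, Jun and Jund, stood at 0.20, -0.11, 0.10 and 0.67.

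Of 9 genes upstream of MMP expression or of PGE2 signalling, 7 were tested and 0 were called, with a median of 0.59. Il6, an inflammatory cytokine gene, was below background on both controls and at 1304 and 803 with PGE2 on its brighter probe. A dimmer probe, also below background on both controls, was at 633 and 387 with PGE2. The dimmer probe had an adjusted p of 0.0444 when all kept probes were fitted (limma), its control values below background included. Both probes were kept for testing through their PGE2 arrays alone. On the brighter probe the PGE2 arrays stood at least 25.0-fold above the floor of the control arrays, a bound without a test. The adjusted p of 0.0576 (limma) belongs to the fit of all values of that probe, those below background included. The floor is the dimmest signal well above background on each control array, or the probe's own where that is higher. Il6 passed the threshold in 4 of 13 alternatives, with adjusted p from 0.0443 to 0.239. Tgfb1, a growth factor gene that is known to restrain several MMP genes, stood at 1.14 ± 0.23 (adjusted p = 0.139). A dimmer Tgfb1 probe had values of 68.4 and 190 on the controls and 198 and 217 with PGE2. With all kept probes fitted, its change was 0.86 ± 0.53 (adjusted p = 0.48, limma).

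Of 19 genes of MMP substrates, 18 were tested, 0 rose and 1 fell, and the median was -0.46. The 1 that fell was Eln, the gene of elastin, with scaled intensities of 845 and 651 on the controls and values below background on both PGE2 arrays. The controls stood at least 25.1-fold above the floor of the PGE2 arrays, a bound without a test. The adjusted p of 0.0438 (limma) belongs to the fit of all values, those below background included. Eln was kept for testing through its control arrays alone. The call was lost in 5 of the 13 alternatives that tested Eln, those without control 1 and without control 2 among them. The others were the percentile over probes above background on all 4 arrays, the authors' scaled signal and no filter on dim probes. There the adjusted p was 0.067, 0.0565 and 0.214 (limma), in that order. Of 6 genes of receptors that take up MMPs or sense collagen, all 6 were tested, 0 were called and the median was 0.31. The collagen-sensing kinase genes Ddr1 and Ddr2 had the smallest p values there, at 0.48 ± 0.15 (adjusted p = 0.242) and 0.31 ± 0.17 (adjusted p = 0.430).

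Between 47.9% and 53.8% of the 59305 non-control spots were well above background on an array, and none was saturated. Smooth muscle markers above background numbered 6 to 8 of 10 on each array, with Myocd on none. Their summed scaled intensity was 478500 and 278900 on the controls and 109600 and 135300 with PGE2. Such a sum adds different probes and follows the brightest, on control 1 Acta2 at 237064 and Tagln at 162402. Of the 6 smooth muscle markers tested 0 rose and 1 fell, Itga8, an integrin gene, by a fitted log2 change of -4.88 (adjusted p = 0.0438, limma). In 5 of the 6 the groups did not overlap and PGE2 was lower, against 28.3% of all tested genes. The groups of Smtn, at -0.33, overlapped. Macrophage markers numbered 5 or 6 of 12, with sums of 45170 and 37200 on the controls and 35790 and 24050 with PGE2, most of it from Itgam. Itgam, Ptprc, Csf1r, Cd14 and Cd68 were above background on all 4 arrays on at least 1 probe. Cd53 was so on PGE2 2 alone, and Adgre1, Lyz2, Tyrobp, Aif1, Mrc1 and Fcgr1 on none. Probes of 1 gene did not agree for Itgam and Ptprc. The dimmer Itgam probe, at 11.9 to 16.2, was above background on no array. Of the 7 Ptprc probes, all but the brightest were likewise above background on no array. Of the 5 tested, 0 were called, and Cd68, a lysosomal protein gene, had the smallest p. Its scaled intensities were 42.4 and 79.8 on the controls and 231 and 265 with PGE2, a change of 2.09 ± 0.36 (adjusted p = 0.109, limma). Neutrophil markers numbered 1 to 3 of 8, with S100a8 and S100a9 on none, and the sum of 34050 to 50300 came mostly from Csf3r. Ly6g, which belongs to a family of close copies, was the 1 neutrophil marker that rose (adjusted p = 0.0438, limma). It went from 41.0 and 46.8 on the controls, the latter below background, to 1005 and 706 with PGE2. Ly6g was kept for testing through its PGE2 arrays alone. The calls of Ly6g and Itga8 were lost on the authors' scaled signal, where 0 genes were called. The same held for the percentile over probes above background on all 4 arrays and for no filter on dim probes. The sums of endothelial markers ran from 471 to 971, of fibroblast markers from 6507 to 10810 and of osteochondrogenic markers from 8584 to 14690. Single fibroblast markers differed by replicate number more than these sums did. On control 1, PGE2 1, control 2 and PGE2 2, Cd34 stood at 20.8, 32.3, 2139 and 2719, the first 2 below background. A dimmer Cd34 probe differed far less by number, at 28.0, 21.8, 53.3 and 61.0, again with the first 2 below background. In the same order Serpinf1 stood at 49.6, 48.1, 750 and 845. Pdgfra was also higher on number 2 in both groups, and Clec3b on number 1. Beyond these levels, the part of other cells in the MMP values was not tested.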

How the data were processed

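RNA of 2 control and 2 PGE2 cultures was measured with 1 array each, and the groups were taken from the sample titles. Per the file headers, the deposited scanner files were made with Agilent Feature Extraction 11.5.1.1 (protocol GE1_1105_Oct12, design 074809, probe build mm9). The submitters' processing notes give 12.0.3.1 as the version. They hold an intensity per spot, background-corrected by that software as deposited, and flags of 0 or 1. The scaled signal in the deposited table of the whole series is the processed intensity times a constant for each array. That file gave gene symbols and an alternative, and its 4 other columns of values per sample were not used.

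The processed intensity was divided by each array's 75th percentile of it and taken to log2. For printing, values were multiplied by the mean of the 4 percentiles on the log2 scale. Such scaling hides a shift common to most transcripts. Spots with outlier flags were left out (158 probes), spots of 1 probe were averaged, and the 26100 probes that were well above background throughout at least 1 group (both of its arrays) were kept. A gene was represented by its brightest kept probe, which gave 17660 tested genes or unnamed probes. Groups were compared with limma 3.58.1 in R 4.3.3 (lmFit, then eBayes, residual degrees of freedom 2, prior 2.15), with data.table (version 1.17.8). The fit was also run on simulated data with planted changes, to check only their sign and mean size. All arrays carry 1 scan identifier, so there is no scan batch to test, and 4 arrays limit the precision.

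The members and gene lists were chosen with earlier results of these data known. Named genes are the 10 members and, for each list, up to 4 called genes or otherwise the 2 with the smallest p. Genes named outside this rule are Plac8, Wfdc12, Mmp15 and Reck, the other tested AP-1 genes and the cell type markers. Intervals are 95% intervals of the limma fit. Alternatives are in the closing section.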

Additional observations from a re-analysis of the deposited data

How the results depend on the processing

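Of the metalloproteinase genes tested, 0 were called in each of the 14 alternatives, which include 4 that leave out 1 array. The genes tested were 6, and 10 without the filter on dim probes. Of the values of tested members and other named genes under these alternatives, 230 kept their direction and side of the threshold, 12 lost and 5 gained a call, and 3 changed sign. The sign changes were Mmp11 at 0.10 on the authors' deposited scaled signal, Mmp11 between -0.32 and 0.0031 with 1 array left out, and Mmp23 between -1.47 and 0.25 with 1 array left out. The median change of the tested members was -0.34 without the filter on dim probes, which adds the 4 genes below background and moves the median of all genes to -0.33. Over all genes, 70 were higher and 48 lower. The counts were 0 and 0 with the percentile taken over probes above background on all 4 arrays (3519 genes at an unadjusted p under 0.05, limma), 0 and 0 on the authors' scaled signal (4203 genes) and 0 and 0 without the filter (2685 genes). They were 39 and 15 with the filter on all 4 arrays, which tests fewer genes. With 1 array left out they ran from 0 to 98 higher and from 0 to 76 lower, with 0 without control 1 or control 2 (2710 and 2963 genes at an unadjusted p under 0.05, limma). With the replicate block there were 88 higher and 84 lower genes, and no member was called. Deviations of arrays of 1 number correlated at 0.424, a value that 2 arrays per group force to be the same for both numbers. The cause of these differences was not tested. The planned background correction on the mean spot signal was not run, and the median spot signal was used in its place, a choice made after seeing the data.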
